A study of Mus musculus with 25 samples.

Results

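The 10 Fanconi anemia genes described here are *Fanca*, *Fancb*, *Fancc*, *Fancd2*, *Fance*, *Fancf*, *Fancg*, *Fanci*, *Fancl* and *Fancm*, chosen by name from the 23116 genes of the deposited RNA-seq table, and all 10 were found in it. Expression was measured in HSLAM cells, the LSK+ CD150+ CD48− population of mouse bone marrow that is enriched for hematopoietic stem cells. Cells were sorted from 3 control mice, which carry 2 floxed *Znf143* alleles and no Cre (*Znf143 f/f* x *Rosa26ERT2-Cre*-, here *Znf143 f/f*), and from 3 mice with the same alleles and the Cre (*Znf143 f/f* x *Rosa26ERT2-Cre*+, here *Znf143 −/−*). All were male littermates, labelled C57BL/6, of 8 to 12 weeks, and both groups received the middle dosage of tamoxifen by intraperitoneal injection for 10 days, after which the Cre removes exon 1 of *Znf143*. Cre driven from Rosa26 is active in all tissues, so that blood cells are not the only ones that lose the gene. The sample labels name the deleted genotype after CTCF, whereas the paper names it after ZNF143. ChIP-seq and HiC samples were not analysed here. Levels are given as rescaled FPKM, the fragments per kilobase of gene length relative to the total of the library, adjusted by a size factor of each library. Gene length counts the exons of all transcripts together, so that comparisons of levels between genes depend on it. In comparisons of 1 gene between libraries this length cancels, but a trend with length that differs between libraries does not. The 10 genes held between 6293 and 9709 fragments per library.

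The Fanconi anemia pathway repairs DNA crosslinks, which join both strands and block the replication fork. FANCM and its partners find the blocked fork and anchor the core complex, which is built from the A-G, B-L and C-E-F modules and carries the ubiquitin ligase FANCL. The core complex attaches 1 ubiquitin to each of FANCD2 and FANCI, which then clamp the DNA and bring in nucleases, translesion polymerases and recombination proteins. Loss of the pathway causes Fanconi anemia, in which blood stem cells are exhausted and bone marrow fails, and endogenous aldehydes are a known source of the damage. The comparison asks how the expression of these genes stood in HSLAM cells with and without ZNF143. Only the deleted group carried the Cre, so that effects of active Cre and of the loss of ZNF143 cannot be told apart.

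*Zfp143*, the mouse symbol of *Znf143*, stood at 3.09, 4.45 and 3.68 rescaled FPKM in controls and at 0.156, 0.299 and 0.272 after deletion. The deleted group reached 6.48% of the control mean, and its log2 fold change was -3.50 ± 0.24 (SE, n = 3 per group, limma adjusted p = 0.0010). Over all 19293 genes tested, 1154 (5.98%) had an adjusted p under 0.05 by limma, 578 of them higher and 576 lower in *Znf143 −/−* cells. The second *Znf143 f/f* and the first *Znf143 −/−* library stood apart from the other 2 of their group. Their counts differed from those of the other libraries of their group by a chi-square of 78.6 to 120 per gene, against 5.04 between the other 2 *Znf143 f/f* and 6.87 between the other 2 *Znf143 −/−* libraries. Among the genes of at most 1162 bases, these 2 libraries lay at a median of 0.15 and 0.24 above the mean of the 6 libraries on the log2 scale, and the others lay between -0.12 and -0.05. Results are therefore given also without them where they decide a value.

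In rescaled FPKM, Fanconi genes fell into 2 ranges of expression. In *Znf143 f/f* cells, *Fancf* was highest with 15.8 ± 1.297 rescaled FPKM (SD, n = 3), followed by *Fancl* with 10.2 ± 0.258, *Fance* with 8.78 ± 0.531 and *Fancg* with 5.01 ± 0.0923. The lowest of these 4 stood at percentile 62.7 of the genes tested. The other 6 genes lay between 0.952 ± 0.0991 for *Fanci* and 1.45 ± 0.0795 for *Fancc*, that is between percentiles 34.2 and 41.0. Gene lengths were 1691 to 3795 bases for the first 4 genes and 2983 to 10440 bases for the other 6. The part of gene length in this order was not tested. Library ranges of neighbours in this order did not overlap, except for those of *Fanca* and *Fancb*, *Fancb* and *Fancm*, and *Fancm* and *Fancd2*. In *Znf143 −/−* cells, *Fancf*, *Fancl*, *Fance* and *Fancg* kept the first 4 places in the same order, again without overlap. *Fanci* moved from the last to the fifth place with 1.66 ± 0.137, and *Fancb* came last with 0.793 ± 0.359. There, the ranges of *Fanci* and *Fanca*, *Fanca* and *Fancd2*, *Fancc* and *Fancm*, and *Fancm* and *Fancb* overlapped. The summed level of all 10 genes lay between 45.3 and 47.7 rescaled FPKM in controls and between 46.1 and 48.1 after deletion.

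**Figure D1:**
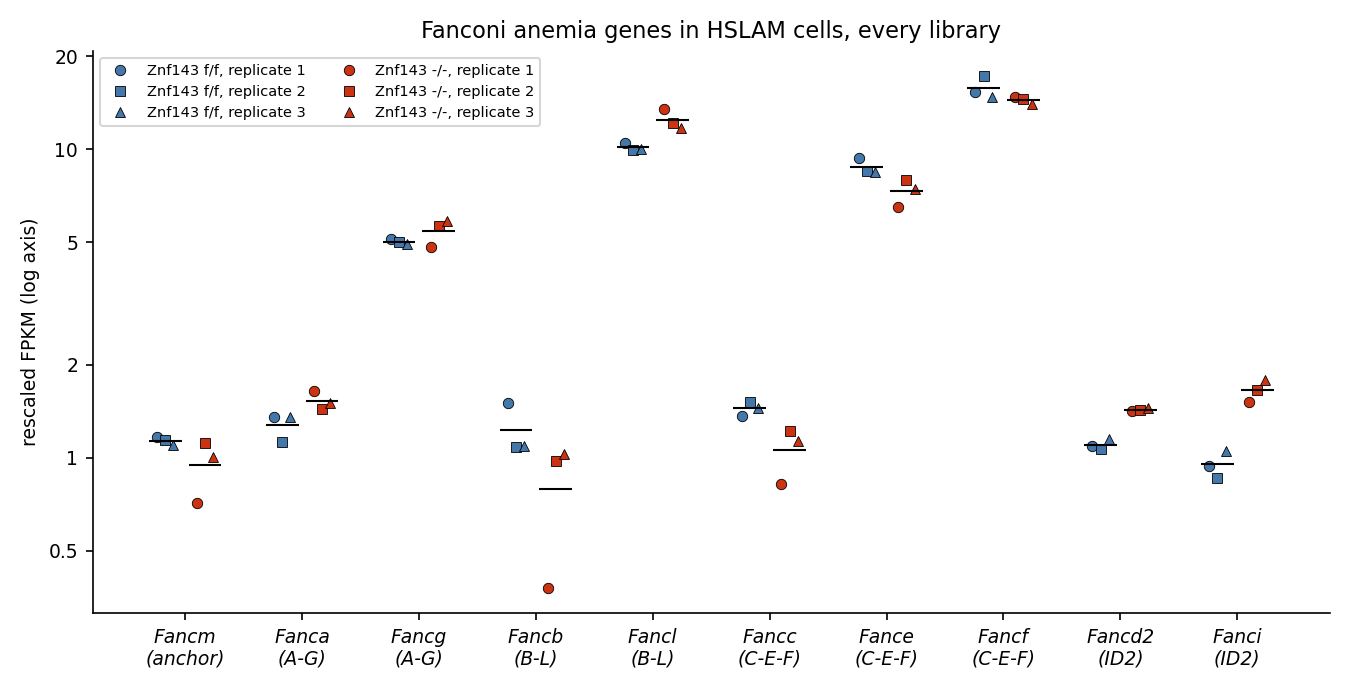
Rescaled FPKM (log axis) of the 10 Fanconi genes in the 3 *Znf143 f/f* libraries (blue) and the 3 *Znf143 −/−* libraries (red), ordered by module, with marker shapes for replicate numbers and bars for group means. *Fancf*, *Fancl*, *Fance* and *Fancg* lie above 4.8 in every library and the other 6 genes below 1.8, and *Fancb* in the first *Znf143 −/−* library lies at 0.380, apart from all other points.

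Of the 10 genes, all of which passed the filter on low values, 1 had an adjusted p under 0.05 by limma, where the share over all genes was 5.98%. This gene was *Fanci*, which was higher in *Znf143 −/−* cells, and no Fanconi gene was called lower by limma or by voom. Over all genes, limma called 3% higher and 2.99% lower, and voom called 656 higher and 744 lower of 19293. At an unadjusted p under 0.05 stood 4 of the 10 genes (*Fancd2*, *Fanci* and *Fancl* higher, *Fance* lower), against 24.2% of all genes. Fold changes were positive for 5 genes and negative for 5, with a median of -0.0033 on the log2 scale, against 0.0065 over all genes tested. For 7 of the 10 genes, the *Znf143 f/f* and *Znf143 −/−* libraries did not overlap, 4 of them higher and 3 lower in *Znf143 −/−* cells, against 30.7% of all genes (15.4% higher, 15.3% lower). With FPKM as deposited, the groups of 4 genes, all higher, did not overlap, where the share over all genes was 25.1%, and none had an adjusted p under 0.05 by limma (4.32% of all genes, 0 of the 10 genes, with 2 of them at an unadjusted p under 0.05). With 3 libraries against 3, the smallest p of an exact permutation test is 0.1, so that for a single gene this test cannot pass 0.05.

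FANCM is the translocase that binds the blocked fork. *Fancm* (chr12:65075603-65132058, plus strand, GRCm38) had 1.17, 1.14 and 1.101 rescaled FPKM in *Znf143 f/f* and 0.716, 1.12 and 1.003 in *Znf143 −/−* libraries. The groups overlapped, and the first *Znf143 −/−* library was the lowest. The log2 fold change was -0.26 ± 0.20 (SE, adjusted p = 0.472), and without the first *Znf143 −/−* library it was -0.09. *Faap24*, the FANCM partner that binds single-stranded DNA, rose in *Znf143 −/−* cells. It had 12.1, 11.3 and 11.0 rescaled FPKM in *Znf143 f/f* and 15.8, 14.7 and 14.4 in *Znf143 −/−* libraries, with a log2 fold change of 0.38 ± 0.08 (SE, limma adjusted p = 0.0499), and it kept an adjusted p under 0.05 in 6 of 17 alternative settings. *Cenps* and *Cenpx*, the histone-fold partners of FANCM, had log2 fold changes of 0.25 (adjusted p = 0.593) and 0.02 (adjusted p = 0.970).

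FANCA and FANCG form the A-G module with FAAP20. *Fanca* (chr8:123268300-123318576, minus strand) had 1.36, 1.13 and 1.36 rescaled FPKM in *Znf143 f/f* and 1.65, 1.44 and 1.501 in *Znf143 −/−* libraries. All *Znf143 −/−* libraries lay above all *Znf143 f/f* libraries, and the log2 fold change of 0.24 ± 0.15 (SE) did not pass the test (adjusted p = 0.377). Its exons share 10.5% of their bases with *Zfp276*, which lies on the other strand and had a log2 fold change of 0.53 (adjusted p = 0.109). The kit does not mark strand, so that fragments of the shared bases cannot be told apart. *Fancg* (chr4:43002343-43010506, minus strand) had 5.10, 5.001 and 4.92 rescaled FPKM in *Znf143 f/f* and 4.82, 5.64 and 5.86 in *Znf143 −/−* libraries. The first *Znf143 −/−* library lay below all *Znf143 f/f* libraries and the other 2 lay above them, and the log2 fold change was 0.11 ± 0.11 (SE, adjusted p = 0.577). *Faap20* had a log2 fold change of -0.19 (adjusted p = 0.213).

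Promoter sequences of *Fanca* and of *Fancg* are shown because they hold the only matches among 9 Fanconi promoters to the motifs that were searched. The window is 250 bases before to 50 bases after 1 RefSeq start of each gene (GRCm38.p6), and a promoter of *Fancd2* was not used here. Other starts were not searched. The windows of *Fancl* (chr11:26386834-26387133) and *Fancc* (chr13:63431696-63431995) lie inside the gene spans given here. The ZNF143 motif was searched as ACTACAA and as TTCCCAG, which stand side by side in the long form of the motif, and the E2F motif as TTTGGCGC, TTTCCCGC, TTTCGCGC and TTTGCCGC, on both strands. Only these exact letters were sought, so that other forms of either motif were not counted. ACTACAA was found in 1 of the 9 Fanconi promoters (*Fanca*, at position -121 from the start) and in 3.24% of 32851 promoters, and TTCCCAG in 0 of the 9 and in 11.1% of all. An E2F motif was found in 1 of the 9 (*Fancg*, TTTCCCGC, at position -52) and in 2.26% of all promoters. Both matches lie on the strand of the gene. Capitals mark the match in the sequences, which are printed 5′ to 3′ on the strand of the gene (*Fanca* at chr8:123318527-123318826, minus strand; *Fancg* at chr4:43010252-43010551, minus strand).
Fanca: @*Fanca*@
Fancg: @*Fancg*@

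FANCB, FANCL and FAAP100 form the B-L module, in which FANCL is the ubiquitin ligase. *Fancb* (chrX:164980592-164997272, plus strand) had 1.51, 1.09 and 1.09 rescaled FPKM in *Znf143 f/f* and 0.380, 0.973 and 1.03 in *Znf143 −/−* libraries. Every *Znf143 −/−* library lay below the *Znf143 f/f* libraries. The first *Znf143 −/−* library, the lowest by far, held 50 fragments on *Fancb*, against 142 to 178 in the other 5. The log2 fold change was -0.66 ± 0.36 (SE, 95% interval -1.51 to 0.20, adjusted p = 0.321). The first *Znf143 −/−* library stood at 30.9% of the *Znf143 f/f* mean, the mean of the other 2 stood at 81.4%, and the log2 fold change without it was -0.26. *Mospd2*, whose start lies 217 bases from that of *Fancb* on the other strand, had a log2 fold change of -0.48 ± 0.22 (SE, adjusted p = 0.239), and its 3 *Znf143 −/−* libraries also lay below its *Znf143 f/f* libraries. *Fancl* (chr11:26386135-26471876, plus strand) had 10.5, 9.97 and 10.04 rescaled FPKM in *Znf143 f/f* and 13.5, 12.2 and 11.7 in *Znf143 −/−* libraries. All *Znf143 −/−* libraries lay above the *Znf143 f/f* libraries, with a log2 fold change of 0.29 ± 0.09 (SE, 95% interval 0.08 to 0.50, adjusted p = 0.112). *Vrk2*, which shares 13.7% of the exon bases of *Fancl*, had a log2 fold change of 0.22 (adjusted p = 0.336). *Faap100* was lowest in the first *Znf143 −/−* library with 7.93 rescaled FPKM and had a log2 fold change of -0.22 (adjusted p = 0.425). *Ube2t*, the ubiquitin-conjugating enzyme that works with FANCL, had a log2 fold change of 0.08 (adjusted p = 0.679).

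FANCC, FANCE and FANCF form the C-E-F module, which holds the substrate close to the ligase. All 3 genes had negative fold changes, and none passed the test. *Fancc* (chr13:63285043-63497278, minus strand) had 1.36, 1.52 and 1.45 rescaled FPKM in *Znf143 f/f* and 0.821, 1.22 and 1.14 in *Znf143 −/−* libraries. The groups did not overlap, and the log2 fold change was -0.43 ± 0.19 (SE, 95% interval -0.87 to 0.01, adjusted p = 0.218). The first *Znf143 −/−* library was again the lowest, at 56.8% of the *Znf143 f/f* mean against 81.5% for the mean of the other 2, and the log2 fold change without it was -0.27. *Gm16133*, an antisense RNA that shares 16.4% of the exon bases of *Fancc*, had at most 0.0697 rescaled FPKM. *Fance* (chr17:28313519-28326572, plus strand) had 9.39, 8.53 and 8.42 rescaled FPKM in *Znf143 f/f* and 6.52, 7.94 and 7.45 in *Znf143 −/−* libraries. The groups did not overlap, and the log2 fold change was -0.26 ± 0.11 (SE, 95% interval -0.52 to -0.01, adjusted p = 0.196). *Fancf* (chr7:51860577-51862267, minus strand), a gene of 1 exon, had 15.3, 17.2 and 14.7 rescaled FPKM in *Znf143 f/f* and 14.8, 14.5 and 14.0 in *Znf143 −/−* libraries. These overlapped, with a log2 fold change of -0.12 ± 0.09 (SE, adjusted p = 0.464). *Gas2*, which starts inside *Fancf* on the other strand, had 0.870 to 1.49 rescaled FPKM.

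The study lists *Fancb*, *Fancc* and *Fancg* among genes with strong association of ZNF143, a list that the study narrowed with gene expression, so that it is not independent evidence of a direction. Their fold changes were not alike, since those of *Fancb* and *Fancc* were negative and that of *Fancg* was positive, and none passed the test. The promoters of *Fancb* (chrX:164980342-164980641, plus strand) and *Fancc* (chr13:63431696-63431995, minus strand) are shown because both genes are on this list while neither window held ACTACAA or TTCCCAG on either strand. The *Fancb* window holds CTCCCAG and the *Fancc* window TTCCCAT, each a single letter away from TTCCCAG. Windows of genes not on the list also hold such variants. The *Fancf* window holds CTCCCAG, and the *Fanci* window holds ACTACAG, a single letter away from ACTACAA. Such variants were not searched over all promoters, and their share was not counted. A ZNF143 motif of another form is thus not excluded in the *Fancb* or the *Fancc* window. The *Fancb* window also covers the start of *Mospd2*.
Fancb: @*Fancb*@
Fancc: @*Fancc*@

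For these 3 genes, the genes with the most similar pattern over the 6 libraries were sought among those with a mean of at least 5 FPKM. *Atg4a* (an autophagy protease, Pearson r = 0.995), *Cyb561a3* (r = 0.993) and *Snord17* (a small nucleolar RNA, r = 0.992) were most like *Fancb*. *Lars* (leucyl-tRNA synthetase, r = 0.997), *Vps37b* (r = 0.995) and *Chordc1* (r = 0.995) were most like *Fancc*. *Pcca* (a subunit of propionyl-CoA carboxylase, r = 0.978), *Nfkbie* (r = 0.977) and *Ptger3* (a prostaglandin receptor, r = 0.977) were most like *Fancg*. These are descriptions over 6 libraries that share the genotype and the libraries that stand apart, and 2.59%, 3.02% and 4.20% of the genes compared had an r over 0.9 with *Fancb*, *Fancc* and *Fancg*.

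FANCD2 and FANCI form the ID2 clamp, the substrate of the core complex. Both genes were higher in every *Znf143 −/−* library than in any *Znf143 f/f* library, and *Fanci*, which passed the test, had the larger fold change. *Fanci* (chr7:79391929-79450264, plus strand) had 0.941, 0.859 and 1.06 rescaled FPKM in *Znf143 f/f* and 1.51, 1.66 and 1.79 in *Znf143 −/−* libraries, from 208 to 600 fragments. The log2 fold change was 0.74 ± 0.16 (SE, 95% interval 0.37 to 1.11, limma adjusted p = 0.0435). In mean rescaled FPKM, the *Znf143 −/−* group stood at 174% of the *Znf143 f/f* group. In the 17 alternative settings, its log2 fold change was 0.44 to 0.85, and its adjusted p was under 0.05 in 9 of them. It was 0.0915 with FPKM as deposited, 0.0649 with the fragment totals of each library and 0.149 with the replicate number as a block, and 0.123 to 0.212 without the first or the third *Znf143 f/f* or the second or the third *Znf143 −/−* library. Without the second *Znf143 f/f* and the first *Znf143 −/−* library, it was 0.00871. That fit was chosen after the data were seen, and it called 42.4% of all genes tested. *Polg*, which shares 16.0% of the exon bases of *Fanci* on the other strand, had a log2 fold change of 0.03 (adjusted p = 0.911).

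*Fancd2* (chr6:113531682-113597017, plus strand) had 1.09, 1.07 and 1.15 rescaled FPKM in *Znf143 f/f* and 1.42, 1.43 and 1.45 in *Znf143 −/−* libraries. The log2 fold change was 0.35 ± 0.14 (SE, 95% interval 0.03 to 0.67, limma adjusted p = 0.179), and it did not pass the test. In mean rescaled FPKM, the *Znf143 −/−* group stood at 130% of the *Znf143 f/f* group. *Emc3*, whose start lies 30 bases from that of *Fancd2* on the other strand, had a log2 fold change of 0.12 (adjusted p = 0.413). The ratio of *Fanci* to *Fancd2* was 0.864, 0.801 and 0.919 in controls and 1.07, 1.16 and 1.23 after deletion. In rescaled FPKM, *Fanci* was thus below *Fancd2* in each of the 3 *Znf143 f/f* libraries and above it in each of the 3 *Znf143 −/−* libraries. This order depends on the gene lengths (5774 bases for *Fanci*, 7937 for *Fancd2*). In fragments, *Fanci* was below *Fancd2* in every library, with 386, 470 and 600 against 496, 556 and 671 in *Znf143 −/−* libraries. The lengths by which FPKM are divided cancel from the shift of the ratio between groups. A trend with gene length that differs between libraries does not cancel. With a correction for that trend, the log2 fold changes were 0.75 for *Fanci* and 0.40 for *Fancd2*. The log2 ratio differed by 0.42 between groups (-0.22 ± 0.10 against 0.20 ± 0.10, SD, n = 3 each, two-sided exact permutation p = 0.1, the smallest that 3 against 3 can give). *Usp1* and *Wdr48*, which together remove ubiquitin from FANCD2 and FANCI, had log2 fold changes of 0.21 (adjusted p = 0.481) and 0.32 (adjusted p = 0.404).

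**Figure D2:**
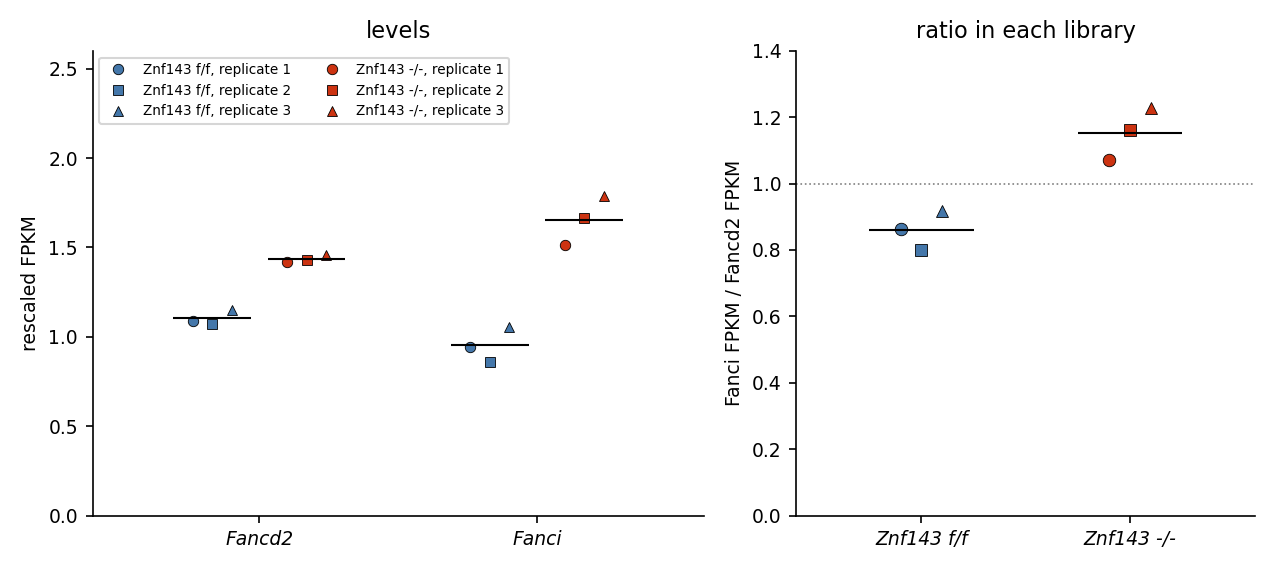
Left, rescaled FPKM of *Fancd2* and *Fanci* in each library (points, with bars for group means). Right, the ratio of *Fanci* to *Fancd2* in each library, which is 0.801 to 0.919 in *Znf143 f/f* and 1.07 to 1.23 in *Znf143 −/−* libraries, on either side of 1 (dotted line). The ratio is of FPKM, and its place above or below 1 depends on the gene lengths.

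Of 39 other genes of the pathway, *Faap24* was the only one with an adjusted p under 0.05 by limma, where the share over all genes was 5.98%. Fold changes were positive for 24 and negative for 15, with a median of 0.08 on the log2 scale. At an unadjusted p under 0.05, 6 were higher and 1 lower, where the share over all genes was 24.2%. The groups of 13 did not overlap (9 higher, 4 lower), where the share over all genes was 30.7%. None of 9 crosslink nucleases and partners such as *Slx4*, the scaffold, and *Ercc4*, the catalytic subunit of the XPF nuclease, was called, with log2 fold changes of -0.26 to 0.38. None of 7 genes of the recombination arm was called. Among them, *Brca1* (-0.33, adjusted p = 0.182) and *Brca2* (-0.26, adjusted p = 0.302) had negative fold changes, and the other 5 had positive ones, up to 0.41, with the lowest adjusted p for *Rfwd3* (0.36, adjusted p = 0.0896). The median of the 7 was 0.08, and the groups of 4 of the 7 did not overlap (2 higher, 2 lower). The 4 translesion synthesis genes (-0.33 to 0.27), the 4 genes of the BLM complex (-0.05 to 0.29) and the 7 genes of ATR signaling and RPA (-0.29 to 0.22) included no call by limma. At an unadjusted p under 0.05 stood 0 of the nucleases, 2 recombination genes, 1 translesion gene, 0 BLM complex genes and 3 genes of ATR signaling and RPA. Voom called 0 of the 39 genes, and 1400 of all 19293.

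**Figure D3:**
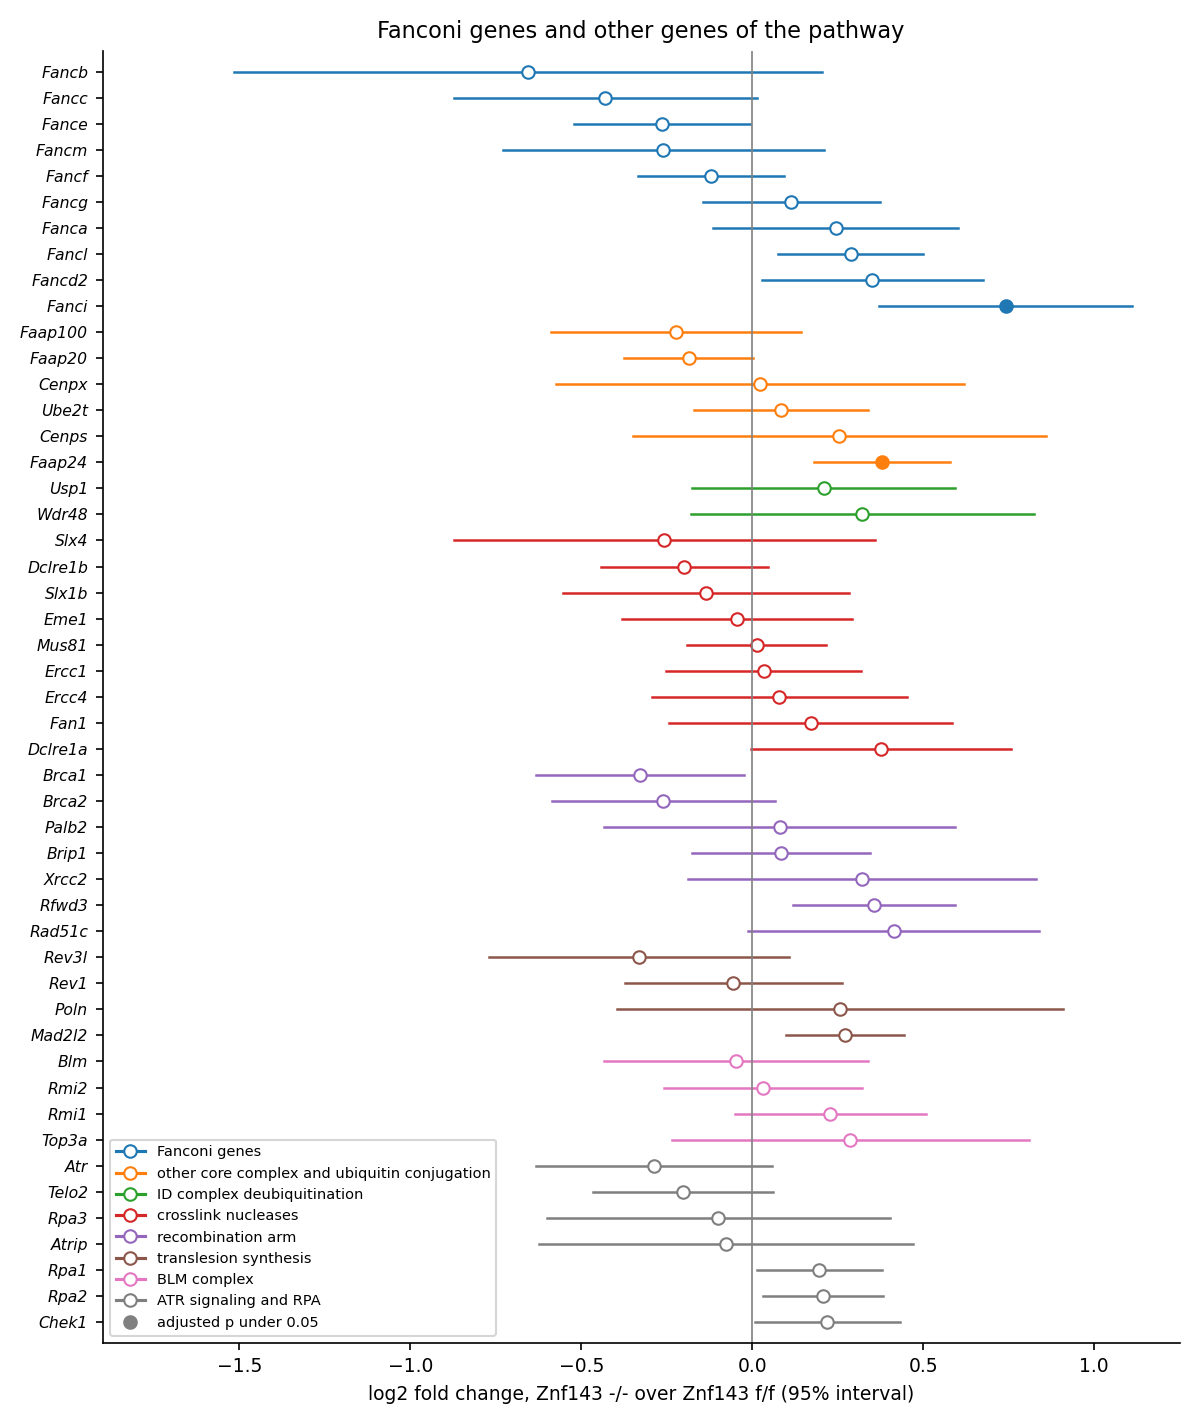
Log2 fold change of *Znf143 −/−* over *Znf143 f/f* with its 95% interval for the 10 Fanconi genes and 39 other genes of the pathway, coloured by role, with filled points where the limma adjusted p is under 0.05. Filled points are *Fanci* (0.74) and *Faap24* (0.38), and the interval of *Fancb* (-1.51 to 0.20) is the widest of these genes.

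Genes of processes that bear on the pathway were mostly not called. Over all genes, limma called 5.98%, and 24.2% had an unadjusted p under 0.05. Of 6 enzymes of aldehyde detoxification none was called by limma or by voom (2 at an unadjusted p under 0.05), and *Aldh2*, the mitochondrial acetaldehyde dehydrogenase, had a log2 fold change of -0.26 (adjusted p = 0.122), with all *Znf143 −/−* libraries below the *Znf143 f/f* libraries. *Aldh9a1*, another aldehyde dehydrogenase, had 0.36 (adjusted p = 0.165), with all *Znf143 −/−* libraries above, and 4 of the 6 fold changes were positive (median 0.16). Of 12 S phase genes 1 was called by limma and 2 by voom (*Pcna* and *Cdc6*). *Pcna*, the sliding clamp, rose from 103 to 110.5 rescaled FPKM in *Znf143 f/f* to 132 to 141 in *Znf143 −/−* libraries (log2 fold change 0.36 ± 0.08, SE, limma adjusted p = 0.0492, called in 7 of 17 alternative settings). *Cdc6*, a replication licensing factor, had 0.47 (limma adjusted p = 0.0565, called in 5 of 17 alternative settings), and *Rrm2*, a subunit of ribonucleotide reductase, had 0.43 (adjusted p = 0.0797). The median of these 12 genes was 0.17, and their summed level was 577 to 673 in *Znf143 f/f* and 664 to 762 in *Znf143 −/−* libraries. Of 12 G2 and M phase genes none was called by limma or by voom (1 at an unadjusted p under 0.05, median 0.12), and their summed level was 449 to 471 and 488 to 495. The part of these levels in the result for *Fanci* and *Fancd2* was not tested. Of 10 p53 target genes, *Cdkn1a*, the inhibitor p21, rose with a log2 fold change of 0.86 ± 0.08 (SE, limma adjusted p = 0.0025, in all 17 alternative settings), and the other 9 were not called.

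Markers of other blood cells also differed between the groups. Limma called 3% of all genes higher and 2.99% lower, and 24.2% had an unadjusted p under 0.05. Of 6 granulocyte markers, 4 were called higher in *Znf143 −/−* cells (*Elane*, *Ctsg*, *Ngp* and *S100a8*), and the summed level of the 6 was 40.5 to 75.9 rescaled FPKM in *Znf143 f/f* and 116 to 143 in *Znf143 −/−* libraries, of which *Elane*, the neutrophil elastase, held at most 11.0. Of 10 stem cell markers, *Ly6a* (the surface protein Sca-1 used in the sort) was called higher with a log2 fold change of 1.13 and *Mecom*, a stem cell transcription factor, lower with -0.55. Of the 10, 7 had negative fold changes (median -0.34), 4 of them at an unadjusted p under 0.05, among them *Hlf*, a stem cell transcription factor, with -0.45 (adjusted p = 0.0564, and 0.0450 by voom) and *Hoxb5* with -0.40 (adjusted p = 0.166). *Kit*, a receptor used in the sort, had 22.2, 19.4 and 21.8 rescaled FPKM in *Znf143 f/f* and 13.5, 16.9 and 16.0 in *Znf143 −/−* libraries (-0.45, adjusted p = 0.0660), and all *Znf143 −/−* libraries were lower. *Slamf1*, the CD150 of the sort, had 5.16 to 7.62 in *Znf143 f/f* and 7.91 to 9.07 in *Znf143 −/−* libraries (0.36, adjusted p = 0.240), and all *Znf143 −/−* libraries were higher. None of 5 erythroid or 4 megakaryocyte markers was called by limma (2 and 2 at an unadjusted p under 0.05, and 0 and 1 called by voom), with summed levels of 35.2 to 45.8 against 36.8 to 40.7 and of 530 to 602 against 650 to 982. Summed B cell markers were at most 0.215 in any library, and *Cd79a* was at 0 in 2 of 6 libraries. Summed T cell markers were 0.0253 to 0.2655 in *Znf143 f/f* and 0.3127 to 0.3463 in *Znf143 −/−* libraries. *Cd3g* was at 0 in all 3 *Znf143 f/f* libraries and held 7 to 10 fragments in the 3 *Znf143 −/−* libraries. It lay below the filter on low values and was not tested. The share of fragments on mitochondrial genes was 2.82 to 3.14% in *Znf143 f/f* and 1.68 to 2.02% in *Znf143 −/−* libraries. In sorted bulk RNA, a change in the cells that make up the sample and a change in RNA per cell cannot be told apart, and the part of these markers in the results for Fanconi genes was not tested.

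The first *Znf143 −/−* library was the lowest of the 6 for 5 of the 10 Fanconi genes (*Fancb*, *Fancc*, *Fance*, *Fancg* and *Fancm*) and the highest for 2 (*Fanca* and *Fancl*), and the second *Znf143 f/f* library was the lowest for 4 (*Fanca*, *Fancd2*, *Fanci* and *Fancl*). With both left out, 3 Fanconi genes had an adjusted p under 0.05 by limma, namely *Fancg* (0.20, adjusted p = 0.0492), *Fanci* (0.73, adjusted p = 0.00871) and *Fancl* (0.22, adjusted p = 0.0243), all higher in *Znf143 −/−* cells, where 8115 of all 19118 genes tested (42.4%) were called, so that the share of Fanconi genes called lay below that of all genes. *Fancb* and *Fancc* were not called (-0.33 and -0.24). All 10 genes kept the sign of their fold change in each of the 17 alternative settings. The changed filters, the fit without a variance trend and the replicate block leave the fold change itself as it is. Those settings could therefore not change a sign.

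**Figure D4:**
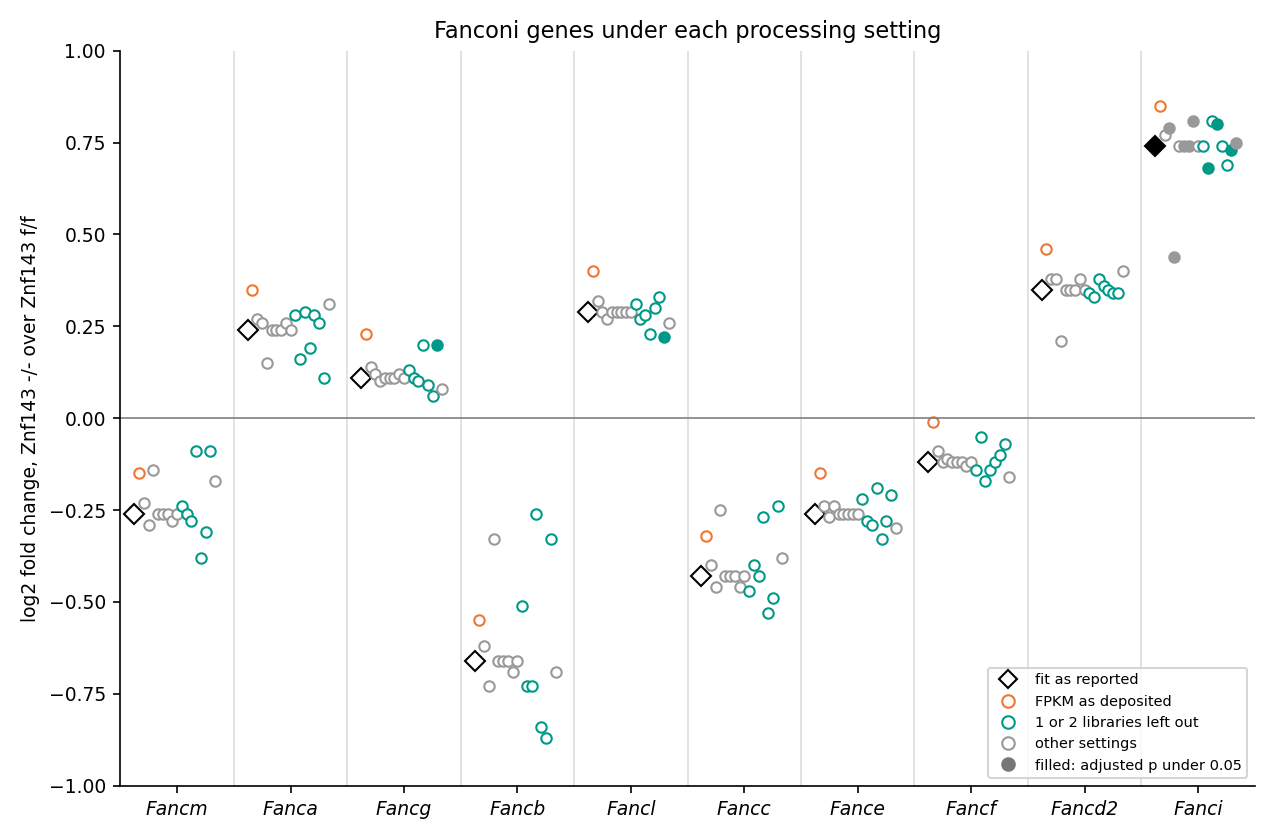
Log2 fold change of each Fanconi gene in the fit as reported (black diamond) and in 17 other settings (circles, with libraries left out in green and FPKM as deposited in orange), filled where the adjusted p is under 0.05. Points of each gene lie on one side of 0, those of *Fancb* reach from -0.87 to -0.26, and those of *Fanci* are filled in 9 of 17 settings.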

How the data were processed

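RNA-seq libraries of sorted HSLAM cells were made with the SMART-Seq v4 and Nextera XT kits, which do not mark strand, and sequenced as paired ends. TrimGalore, STAR (to GRCm38, also called mm10) and FeatureCounts were used by the authors for trimming, alignment and counting, and the authors deposited FPKM of each library with gene lengths. The deposited columns of mean count, log2 fold change, its error, test statistic, p-value and adjusted p-value are the authors' own comparison and were not used. The labels put 3 libraries in each group; the paper describes 3 pairs of littermates without naming the pairs.

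Fragments were recovered from FPKM and gene length, and 99.986% of 138696 values were whole within 0.05. Libraries held 38643255 to 57895793 fragments on genes, and 3 fragments on 1 kb give 0.0516 to 0.0784 rescaled FPKM. FPKM of the third *Znf143 −/−* library had been divided by 48378188, the total of the second, which is 1.20 times too small, so size factors from the median of ratios (0.906 to 1.20) were applied to all FPKM. Genes with a mean of at least 0.1 FPKM were tested on log2(FPKM + 0.1), which understates changes of low genes, with limma 3.58.1 in R 4.3.3 (lmFit, eBayes with trend) and Benjamini-Hochberg adjustment over all genes, without a block. Fold changes are on this scale. The script was tested on simulated data. Exact permutation tests used scipy 1.17.1 in Python 3.11.15, with numpy 2.4.6, pandas 2.3.3 and matplotlib 3.10.9.

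Of 23115 symbols, 22193 were found in GENCODE vM21 (GRCm38), which gave coordinates and overlaps, and 21 symbols had been turned into dates, none of a Fanconi gene. Promoters come from RefSeq (GRCm38.p6; 9 of 10 matched). All 10 Fanconi genes are named. Of other lists, genes with an adjusted p under 0.05 are named, with overlapping or head-to-head genes that have levels, and the 3 genes most like each listed ZNF143 gene. Others named beside them (such as *Brca1*, *Aldh2*, *Cdc6*, *Hlf* and module partners) were chosen for their roles after values were seen. A gene of these lists is not reported here. Members and lists were chosen with earlier results of these data known. Alternatives were the deposited scaling, own totals, pseudocounts of 0.01 and 1, no filter, a mean of at least 1 FPKM, no variance trend, voom on recovered fragments, a replicate block and each library left out. Chosen after seeing the data were a fit without the 2 libraries that stand apart and a correction for gene length.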

Additional observations from a re-analysis of the deposited data

How the results depend on the processing

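Each of the 10 Fanconi genes kept the sign of its fold change in all 17 alternatives, and *Zfp143* was called in all of them (log2 fold change -3.96 to -1.92). For the sign, the changed filters, the missing variance trend and the replicate block are no test, since they leave the fold change as it is. The number of Fanconi genes called was 1 in 8 alternatives (each time *Fanci*). It was 0 with FPKM as deposited, with own fragment totals, with no filter and with the replicate block, 0 to 1 with single libraries left out, and 3 without both the second *Znf143 f/f* and the first *Znf143 −/−* library. Of the other pathway genes, 1 was called, 0 with FPKM as deposited, own fragment totals, a pseudocount of 0.01, no variance trend, voom or the replicate block, 0 to 2 with single libraries left out and 15 without those 2 libraries. All genes called numbered 1154, 191 with the replicate block, 223 to 2286 with single libraries left out and 8115 without those 2, where the 2 closest libraries of each group remain. The deposited scaling moved the median of all genes from 0.0065 to 0.1135 on the log2 scale and the share of higher calls from 50.1% to 63.5% (529 higher, 304 lower), the median of the Fanconi genes from -0.0033 to 0.1094, and the number of them whose groups do not overlap from 7 to 4 (*Fanca*, *Fancd2*, *Fanci* and *Fancl*). Deviations of same-numbered libraries from their group mean correlated at -0.0953, -0.0884 and 0.0356. With 3 libraries in each group, of which 1 stands apart, this cannot show whether the numbers name the littermate pairs. Under the replicate block, *Fanci* had a limma adjusted p of 0.149. Depth limits *Fancb* most, with 50 to 178 fragments. Groups of 3 allow no test for single outlying libraries. The limma p-values set the difference between groups against the spread within groups of these 6 libraries, with information on spread shared over all genes.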
